A study of Mus musculus with 12 samples.

Results

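Neat1, Meg3 and Snhg20, which are RNAs that encode no protein, and 7 genes for proteins of the splicing machinery, namely Srrm1, Srrm2, Srrm3, Pnn, Luc7l, Clk1 and Clk4, were followed in mouse forestomach. They were taken by gene name, which gave 21 of the 41174 array probes other than controls, and 19 of these 21 were bright enough to enter the comparisons, of 30447 such probes in all. Snhg20 stands in the array files under its older name, 2810008D09Rik. The genes were selected on the differences between groups seen earlier in these same 12 samples, and which contrast put each gene on the list is not recorded. Their values are therefore a description, and the test results serve only to count calls beside those over all probes.

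The forestomach is the squamous, keratinised upper part of the rodent stomach, and the RNA came from the whole organ of wild-type C57BL/6J mice, labelled as adult. Of the 3 groups of 4 samples, one drank 20% alcohol in supersaccharin for 4 weeks, one drank 15% alcohol for 40 weeks, where the labels mention no saccharin, and the controls drank supersaccharin with 0% alcohol. Forestomach RNA in Cy5 was hybridised together with a commercial mouse reference RNA in Cy3, so every level below is a log2 ratio of forestomach to reference, and 0 means equal signal in both. The labels do not say that replicates were separate animals, so any p-value measures the spread between these samples. The 40-week group had no controls of its own age.

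Neat1 is the scaffold of paraspeckles, nuclear bodies that hold back RNA and RNA-binding proteins. Splicing factors are stored in neighbouring bodies, the nuclear speckles, of which Srrm2 is a core protein. The CLK kinases phosphorylate SR proteins, the splicing factors rich in arginine and serine, and so release them from speckles. Transcripts of Clk1 and Clk4 are themselves known to be kept in the nucleus with introns unspliced.

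Scanner output was read for the 4-week and control arrays. Differences at 4 weeks are on corrected scanner ratios unless stated, whose scale over all probes was narrower than that of the deposited table. The 40-week arrays were read from the deposited table of log2 ratios alone, and their separate channels were not analysed here. The controls lay on 1 slide and the 4-week samples on another, so slide and group cannot be told apart. The percentage of spots well above background in Cy5 was 64.8% to 73.7% on 4-week arrays and 73.9% to 78.8% on control arrays. The standard deviation over all probes was 1.02 to 1.08 in the 40-week columns, against 1.48 to 1.58 at 4 weeks and 1.52 to 1.73 in controls, so the 40-week ratios lay closer to 0. The 10 markers of squamous epithelium averaged a log2 ratio of 3.89 to 4.57 at 4 weeks, 2.86 to 3.25 at 40 weeks and 5.19 to 5.72 in controls, and at 40 weeks limma called 0 of the 10 higher and 10 lower (2 higher and 6 lower with the columns scaled to 1 spread). Smooth muscle markers gave 0 of 8 higher and 8 lower (0 and 2 when scaled). Of 8 immediate early genes, which respond to handling of the tissue, 4 were called higher and 0 lower (1 and 0 when scaled). Over all genes, limma called 18.8% higher and 23.5% lower at 40 weeks (18.7% and 18.4% when scaled). The part of these marker shifts in the results was not tested. Some libraries stood apart. The summed Cy5 signal of 10 pancreatic acinar markers was 493279 in 4-week replicate 2, 2546880 in control replicate 3 and 497960 in control replicate 4, and at most 2613 on the other 5 arrays. Of 8 glandular stomach markers it was 1708523 in 4-week replicate 2 and 1496410 in control replicate 4. At 40 weeks, replicates 3 and 4 had Xist ratios of 1.49 and 1.38, against -10.06 to -6.40 in the other 10 samples. Y-linked Eif2s3y had -5.67 and -6.28 in these replicates, against 2.61 to 3.17 in the other 10. Y-linked Ddx3y, Uty and Kdm5d were lower in them as well. By these genes replicates 3 and 4 read as female and the other 10 samples as male, while the labels give no sex. The part of sex in the 40-week differences was not tested. Values that moved clearly without 4-week replicate 2 and control replicates 3 and 4, called the 3 mixed arrays below, or without 40-week replicates 3 and 4, are given both ways.

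The probes that carry the values are 60 bases long, and some of them are shown, with positions on mouse build mm9 as the files give them. For Luc7l and Clk4 the probe shown is not probe 1, whose sample values are listed below. The probes of Srrm1 and Srrm2 are not shown. Neat1 was read by 1 probe at chr19:5842564-5842623 on the minus strand, Snhg20 by 1 probe that crosses a splice junction between positions 116938514 and 116940146 of chromosome 11 on the plus strand, and Pnn by 1 probe at chr12:60173656-60173715 on the plus strand. Meg3 probe 1 lies at chr12:110809678-110809737 and Meg3 probe 3 at chr12:110800898-110800957, both on the plus strand, and they were designed on different Meg3 transcripts. Luc7l probe 2 lies at chr17:26404167-26404226 on the plus strand and Clk1 probe 1 at chr1:58469118-58469177 on the minus strand. Clk4 probe 3 crosses a junction between positions 51086656 and 51087106 of chromosome 11 on the plus strand. Exon and UTR annotation of that build was not used here.
Neat1: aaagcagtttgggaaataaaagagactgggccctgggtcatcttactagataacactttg
Meg3 probe 1: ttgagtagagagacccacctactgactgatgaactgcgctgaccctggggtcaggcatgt
Meg3 probe 3: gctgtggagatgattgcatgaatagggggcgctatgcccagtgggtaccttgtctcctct
Snhg20: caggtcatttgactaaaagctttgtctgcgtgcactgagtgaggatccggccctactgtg
Pnn: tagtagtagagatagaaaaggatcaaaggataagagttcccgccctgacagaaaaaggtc
Luc7l probe 2: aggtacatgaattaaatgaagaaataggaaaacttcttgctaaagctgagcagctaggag
Clk1 probe 1: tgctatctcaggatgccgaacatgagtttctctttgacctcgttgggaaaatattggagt
Clk4 probe 3: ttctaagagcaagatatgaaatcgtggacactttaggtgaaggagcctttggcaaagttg

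Of the 19 probes, 18 had a higher mean ratio after 40 weeks than in controls, and 13 were called higher and 0 lower by limma (adjusted p under 0.05 over all probes), where 18.1% of all probes were called higher, 24.2% lower and 42.2% in either direction. At an unadjusted p under 0.05, limma gave 14 of 19 higher and 0 lower, beside 15454 of all 30447 probes in either direction. In 11 of 19 probes every 40-week sample lay above every control, as did 17.9% of all probes. That count was 13 of 19 (24.4% of all probes) without control replicates 3 and 4, and 13 of 19 (21.2%) without 40-week replicates 3 and 4. The calls higher were 12 of 19 (15.1% of all probes) without 4-week replicate 2 and control replicates 3 and 4, and 10 of 19 (9.19%) without 40-week replicates 3 and 4. Since the genes were chosen with this contrast known, nothing is read from these counts. After 4 weeks, 1 of 19 probes (Srrm1) had a higher mean ratio than in controls, and 0 of 19 without the 3 mixed arrays or with median centring of each array. Here limma called 0 of 19 on the scanner ratios, where 0.755% of all probes were called. At an unadjusted p under 0.05 it gave 6 of the 19 lower and 0 higher, beside 5414 of all 30447 probes in either direction. On the deposited table limma called 1 of 19 at 4 weeks, Clk4 probe 1, lower, as were 3.04% of all probes. Both alcohol groups are set against the same controls. Set against each other, 18 of 19 probes were called higher at 40 weeks than at 4 weeks, where 18.3% of all probes were called higher, and 15 of 19 (9.75%) without 40-week replicates 3 and 4. In 17 of 19 probes these groups did not overlap, as in 20% of all probes. In bulk tissue, fewer cells that use a gene and less RNA per cell cannot be told apart.

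**Figure D1:**
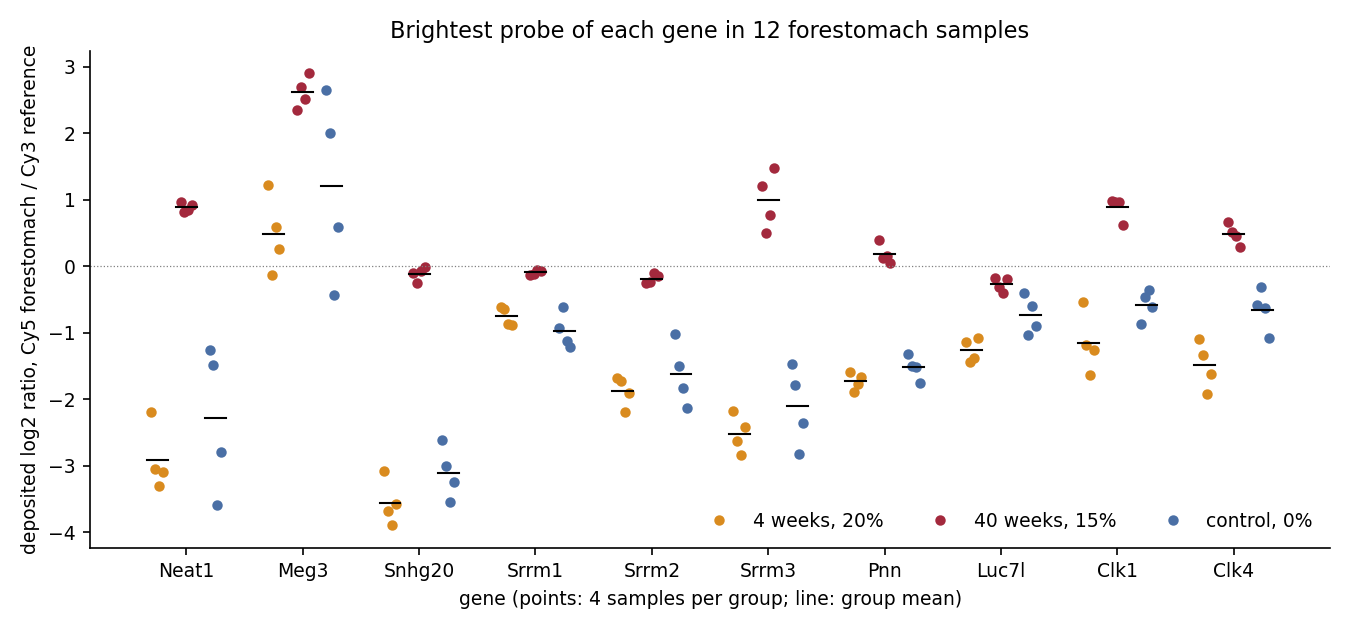
Deposited log2 ratio of forestomach (Cy5) to reference RNA (Cy3), on the vertical axis, for the brightest probe of each of the 10 genes in the 4-week, 40-week and control groups, 4 points per group with a line at the mean. The 40-week points of Neat1 lie between 0.82 and 0.97, above all controls, while those of Meg3 overlap the controls.

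Among the noncoding RNAs, Neat1 had deposited log2 ratios of -2.19, -3.05, -3.30 and -3.09 after 4 weeks, 0.97, 0.82, 0.84 and 0.92 after 40 weeks, and -1.26, -1.48, -3.58 and -2.79 in controls. All 40-week samples were high and lay close together, the controls split into a higher and a lower pair, and the 4-week samples overlapped the lower controls. The mean ratio was 0.89 ± 0.07 at 40 weeks against -2.28 ± 1.10 in controls (SD, n = 4 each), a difference of 3.17 ± 0.44 (SE) or 8.97-fold. Without 4-week replicate 2 and control replicates 3 and 4, the arrays with pancreas and glandular stomach transcripts, this difference was 2.26. The scanner channels show where the low ratios came from: Cy5 signal above background was 3843, 3376, 1676 and 1012 on 4-week arrays and 9471, 12655, 2798 and 4228 on control arrays, beside a Cy3 signal of 34985 to 45369 on 4-week arrays and 46430 to 53359 on control arrays. Neat1 was thus far brighter in the reference RNA than in the forestomach of these groups. The difference between 4 weeks and control was -0.61 ± 0.50 on the scanner ratios, where the Cy5 channel gave -0.77 ± 0.52 and the Cy3 channel -0.11 ± 0.06, and the groups overlapped. It was -1.46 without the 3 mixed arrays, -0.27 without control replicate 1 and -1.04 without control replicate 3.

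Meg3, the maternally expressed RNA of the Dlk1-Dio3 imprinted region, had ratios at probe 1 of 1.23, -0.14, 0.60 and 0.26 after 4 weeks, 2.35, 2.70, 2.51 and 2.90 after 40 weeks, and 2.65, 2.00, -0.42 and 0.59 in controls. Control 1 reached the 40-week level, control 2 came close and controls 3 and 4 did not, so these groups overlapped, while the 40-week samples all lay above the 4-week samples. The difference at 40 weeks was 1.42 ± 0.55 at probe 1, 1.86 ± 0.42 at probe 2, 1.38 ± 0.42 at probe 3 and 1.40 ± 0.34 at probe 4, and the groups overlapped at probes 1 and 3 and not at probes 2 and 4. These differences were 0.29, 1.14, 0.68 and 0.67 without the 3 mixed arrays, smaller at each of the 4 probes. Against the 4-week samples the 40-week difference was 2.10 to 2.14 over the 4 probes, and 1.92 to 2.08 without the 3 mixed arrays. At 4 weeks the 4 probes had differences from control of -0.72 to -0.23, and of -1.60 to -0.70 without the 3 mixed arrays. At probe 1 it was -0.72 with all arrays and -0.27 without control replicate 1. Probes 3 and 4 were dim on the 4-week arrays, with Cy5 above background of 15.7 to 59.2 and 12.8 to 29.5. Probe 1 had 142 to 572 there. The fifth Meg3 probe was too dim to be kept.

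Snhg20, a host gene of small nucleolar RNAs, had ratios of -3.07, -3.68, -3.89 and -3.57 after 4 weeks, -0.10, -0.25, -0.07 and -0.01 after 40 weeks, and -2.61, -3.0, -3.55 and -3.25 in controls. Every 40-week sample was close to the reference RNA and far above every other sample. The difference from controls was 2.99 ± 0.21 or 7.95-fold, and 2.69 without the 3 mixed arrays. In contrast to Neat1, the controls lay within 0.94 log2 units of each other. At 4 weeks the difference was -0.37 ± 0.22 on the ratio and -0.61 without the 3 mixed arrays. On all arrays, Cy5 gave -0.63 ± 0.20 and the reference channel itself gave -0.26 ± 0.06, one of 3 probes among the 19 that limma called in Cy3 (with Meg3 probe 2 and Srrm3 probe 1), where 7.19% of all probes were called.

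Srrm1 and Srrm2 encode the serine and arginine repetitive matrix proteins, coactivators that bridge splicing factors bound to exons. Srrm1 had ratios of -0.60, -0.64, -0.86 and -0.88 after 4 weeks, -0.12, -0.11, -0.05 and -0.07 after 40 weeks, and -0.93, -0.61, -1.12 and -1.21 in controls. The 40-week samples were the highest and spanned 0.07 log2 units, and the other groups overlapped; the difference at 40 weeks was 0.88 ± 0.14. Srrm2 had ratios of -1.68, -1.73, -2.18 and -1.90 after 4 weeks, -0.25, -0.23, -0.10 and -0.14 after 40 weeks, and -1.01, -1.50, -1.83 and -2.12 in controls. Again all 40-week samples were above all others, with a difference from controls of 1.43 ± 0.21 or 2.70-fold. At 4 weeks the differences were 0.21 ± 0.15 for Srrm1 and -0.25 ± 0.23 for Srrm2, both with overlapping groups. Without the 3 mixed arrays Srrm1 turned to -0.02 and Srrm2 had -0.65, and Srrm2 had -0.04 without control replicate 1. At 40 weeks these arrays moved the differences to 0.68 for Srrm1 and 1.07 for Srrm2 when left out.

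Srrm3, another serine and arginine repetitive matrix protein, known for the splicing of microexons in neurons and endocrine cells, gave different answers at 2 probes that share 40 of their 60 bases. Both cross the same junction on the plus strand of chromosome 5, probe 1 between positions 136330257 and 136330448 and probe 2 between positions 136330277 and 136330468, and the shared bases are in capitals.
Srrm3 probe 1: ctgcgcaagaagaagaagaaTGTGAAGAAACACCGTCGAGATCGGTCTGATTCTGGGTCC
Srrm3 probe 2: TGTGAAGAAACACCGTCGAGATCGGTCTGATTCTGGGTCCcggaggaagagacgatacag

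Srrm3 probe 1 had ratios of -2.17, -2.63, -2.84 and -2.42 after 4 weeks, 1.20, 0.51, 0.78 and 1.48 after 40 weeks, and -1.46, -1.78, -2.82 and -2.35 in controls. Probe 2 had ratios of 0.82, 1.30, 0.67 and 0.10 after 4 weeks, 1.45, 1.20, 1.30 and 1.73 after 40 weeks, and 1.74, 1.30, 1.47 and 0.91 in controls. The 40-week samples stood clear of the others at probe 1 and overlapped both groups at probe 2, with differences from controls of 3.1 ± 0.30 and 0.06 ± 0.25 (2.61 and -0.10 without the 3 mixed arrays). At probe 1 the reference signal was not constant: Cy3 above background was 2604, 1173, 237 and 2058 on 4-week arrays and 231, 184, 184 and 232 on control arrays, and Cy5 was 214, 84, 12 and 76 on 4-week arrays and 34, 31, 16 and 25 on control arrays. At probe 2, Cy3 was 26 to 33 on 4-week arrays and 25 to 33 on control arrays, and Cy5 was 10 to 38 on 4-week arrays and 33 to 47 on control arrays. Since the reference RNA was one product throughout, per the labels, the ratio at probe 1 has a denominator that was not the same on all arrays, and at 4 weeks it had a difference of -0.86 ± 0.22 as a ratio but 1.02 ± 0.37 in Cy5 alone. The third Srrm3 probe was too dim to be kept. No level of Srrm3 across the groups is therefore taken from these probes. Both probes nevertheless stay in the counts over kept probes. Probe 1 also stands for Srrm3 in the correlations between genes and in the mean of the splicing factor genes. None of these summaries is given without Srrm3.

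**Figure D2:**
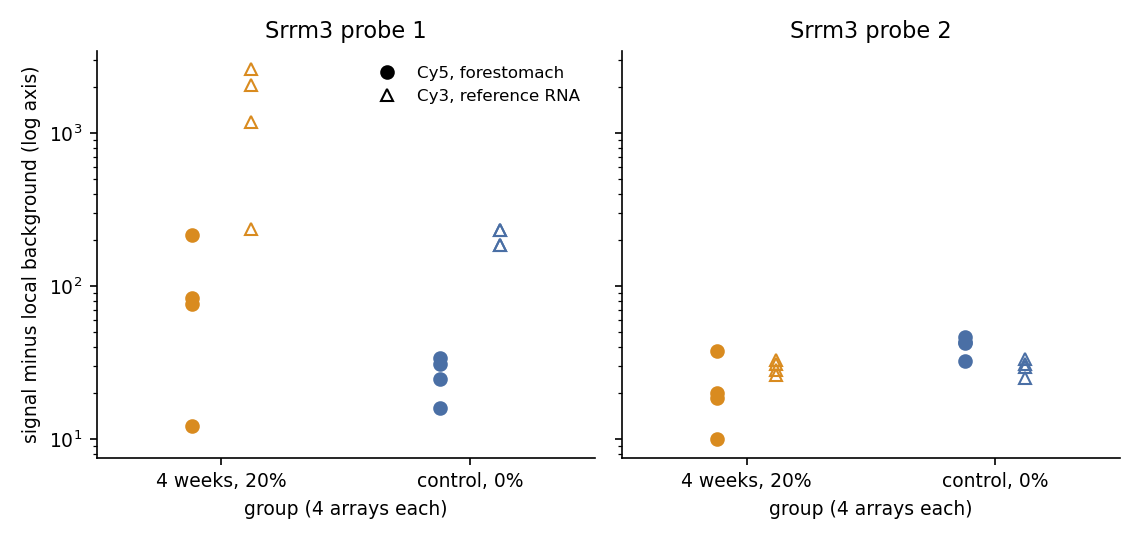
Signal minus local background, on a log axis, at both overlapping Srrm3 probes on the 4-week arrays (left in each panel) and control arrays (right), with filled circles for forestomach RNA in Cy5 and open triangles for reference RNA in Cy3, 1 point per array. At probe 1 the reference signal reaches 2604 on a 4-week array and stays at or below 232 on control arrays, while at probe 2 it stays at 25 to 33.

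Pnn encodes pinin, which is known both at the exon junction complex, with Srrm1, and at desmosomes. It had ratios of -1.59, -1.88, -1.77 and -1.67 after 4 weeks, 0.40, 0.12, 0.16 and 0.06 after 40 weeks, and -1.32, -1.50, -1.51 and -1.75 in controls. The 40-week samples were apart from all others, and the other groups overlapped. The difference from controls was 1.70 ± 0.13 or 3.26-fold at 40 weeks and -0.21 ± 0.12 at 4 weeks.

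Luc7l, a relative of the yeast U1 snRNP protein Luc7, had the smallest 40-week difference of the brightest probes. At probe 1 its ratios were -1.14, -1.44, -1.37 and -1.08 after 4 weeks, -0.18, -0.30, -0.39 and -0.18 after 40 weeks, and -0.39, -1.03, -0.59 and -0.89 in controls. The 40-week samples overlapped the controls by 1 sample, and the 4-week samples lay below all controls. The difference from controls was 0.46 ± 0.15 at 40 weeks and -0.52 ± 0.16 at 4 weeks, and at probe 2 it was 0.13 ± 0.29 and -0.78 ± 0.27. Without the 3 mixed arrays probe 2 turned to -0.30 at 40 weeks and had -1.13 at 4 weeks.

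Of the kinases, Clk1 had ratios at probe 1 of -0.53, -1.18, -1.64 and -1.25 after 4 weeks, 0.99, 0.96, 0.97 and 0.62 after 40 weeks, and -0.87, -0.47, -0.35 and -0.61 in controls. The 40-week samples were above all others, and the 4-week samples reached lower than the controls but overlapped them. The difference from controls was 1.46 ± 0.21 at 40 weeks and -0.57 ± 0.22 at 4 weeks, and probe 2, on another stretch of the transcript, gave 1.30 ± 0.24 and -0.31 ± 0.25, or 1.47 and -0.14 without the 3 mixed arrays.

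Clk4 had ratios at probe 1 of -1.09, -1.34, -1.92 and -1.61 after 4 weeks, 0.68, 0.51, 0.46 and 0.29 after 40 weeks, and -0.58, -0.31, -0.62 and -1.08 in controls. The 3 groups did not overlap, with 40 weeks highest and 4 weeks lowest; the closest pair was the 4-week sample at -1.09 and the control at -1.08. The 3 groups held 1 order of means at probes 1, 2 and 3, which were designed on the reference mRNA. Their differences from controls were 1.13 ± 0.20, 0.47 ± 0.24 and 0.60 ± 0.28 at 40 weeks and -0.82 ± 0.21, -0.57 ± 0.16 and -0.26 ± 0.18 at 4 weeks. Without the 3 mixed arrays they were 0.93, 0.65 and 1.01 at 40 weeks and -1.07, -0.44 and -0.0037 at 4 weeks. With all arrays, the 4-week differences on the deposited table were -0.84, -0.82 and -0.65. Probe 4, designed on a cDNA clone at chr11:51085624-51085683, showed -0.24 ± 0.17 at 40 weeks and -0.09 ± 0.12 at 4 weeks, with all groups overlapping. Of all 19 probes, Luc7l probe 1, Clk4 probe 1 and Clk4 probe 2 were the 3 in which every 4-week scanner ratio lay below every control, as in 5.86% of all probes. In Cy5 alone limma called 0 of 19 at 4 weeks, where 0.197% of all probes were called; Clk4 probe 1 had -0.96 ± 0.25 in Cy5 and -0.11 ± 0.08 in Cy3, and Luc7l probe 1 had -0.75 ± 0.22 and -0.23 ± 0.08.

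**Figure D3:**
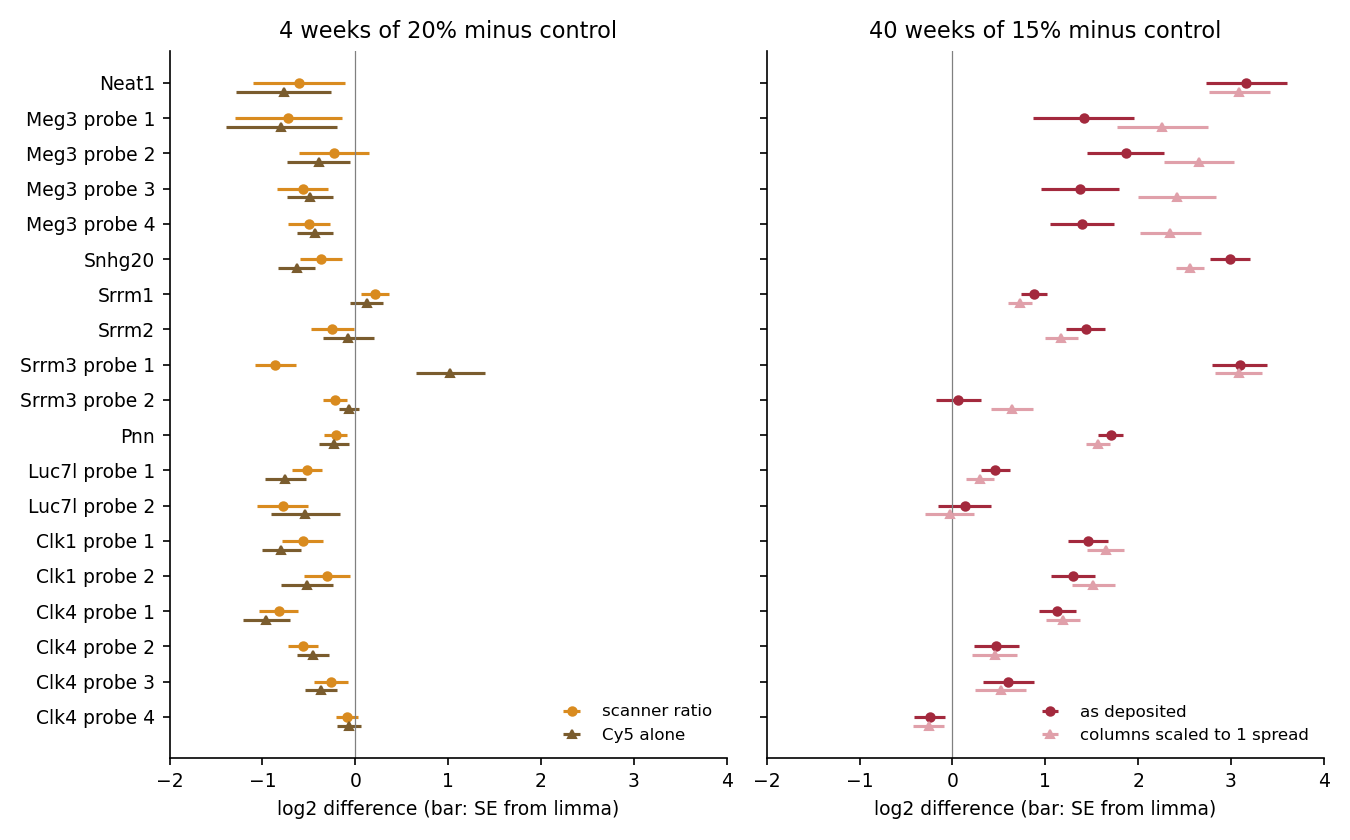
Log2 difference from controls, with bars of 1 SE from limma, for the 19 kept probes after 4 weeks (left panel, ratio and Cy5 alone) and after 40 weeks (right panel, as deposited and with all columns scaled to 1 spread). At 40 weeks 18 of 19 probes lie above 0 as deposited, and at 4 weeks Srrm3 probe 1 has -0.86 as a ratio and 1.02 in Cy5.

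Over all kept probes, low ratios were higher and high ratios lower at 40 weeks than in controls, as the narrower spread of those columns entails. The median difference between 40 weeks and control was 1.21 over 410 probes with a control ratio below -3, 0.87 from -3 to -2, 0.63 from -2 to -1 and 0.15 from -1 to 0. It was -0.26 from 0 to 1, -0.60 from 1 to 2 and -1.26 above 2. Snhg20 with 2.99 and Neat1 with 3.17 stood above the medians of their classes (1.21 and 0.87). The 4 Meg3 probes, with control ratios above 0, had differences of 1.38 to 1.86 where the class medians were below 0. Pnn with 1.70, Srrm2 with 1.43, Srrm1 with 0.88, Clk1 with 1.46 and Clk4 probe 1 with 1.13 also stood above theirs. Pnn and Srrm2 lay below the 90th percentile of their class, 1.76 from -2 to -1. Srrm1, Clk1 and Clk4 probe 1 lay above that of their class, 0.82 from -1 to 0. Neat1 and Snhg20 lay above theirs, 2.20 and 2.22. Luc7l probe 2 with 0.13 and Clk4 probe 4 with -0.24 lay at about the median. With all columns scaled to 1 spread, the 40-week difference was 3.09 ± 0.33 for Neat1, 2.56 ± 0.15 for Snhg20, 2.26 ± 0.49 for Meg3 probe 1, 1.57 ± 0.13 for Pnn, 1.65 ± 0.20 for Clk1 probe 1 and 1.17 ± 0.18 for Srrm2. Scaling moved Srrm3 probe 2 from 0.06 ± 0.25 to 0.64 ± 0.23. In 13 of 19 probes the 40-week samples then lay above all controls, as in 17.2% of all probes. Every one of the 10 brightest probes had a narrower range at 40 weeks than in controls, and so did 80.1% of all kept probes.

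**Figure D4:**
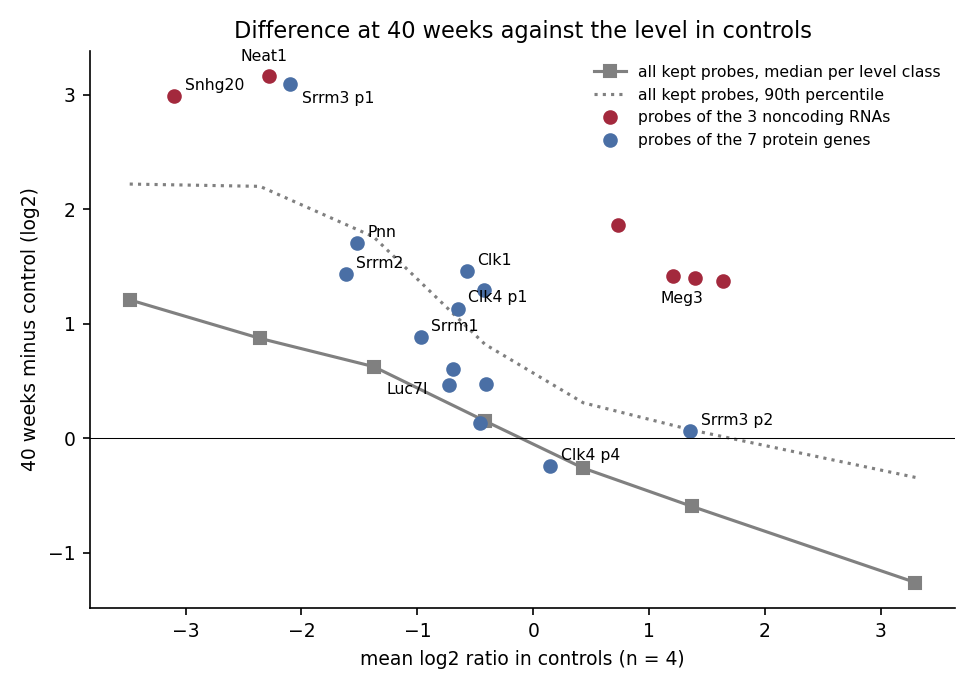
Log2 difference between 40 weeks and control, on the vertical axis, against the mean log2 ratio in controls, for the 19 kept probes (points) and for the median and 90th percentile of all kept probes in 7 level classes (grey lines). Neat1, Snhg20, Srrm3 probe 1, the Meg3 probes and both Clk1 probes are among those above the 90th percentile line, and Luc7l probe 2 and Clk4 probe 4 lie near the median line.

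Within groups, the deviations of Neat1, Meg3 and Snhg20 were positively correlated with each other. Deviations from the group means of the brightest probes were positively correlated in 41 of 45 pairs of the 10 genes over the 12 samples, with a median r of 0.52. These are descriptions over arrays that share a reference RNA and, in part, the transcripts of other organs. Pairs of other genes were not counted in this way, so no trait of the 10 genes is read from the correlations. Neat1 and Meg3 had r = 0.94 (Spearman's rho 0.78), and 0.82 without control replicates 1 and 3, the 2 samples farthest from the median. Neat1 and Snhg20 had r = 0.90 (rho 0.94), and 0.80 without those samples. The 5 Meg3 probes had r of 0.78 to 0.95 among themselves. Clk1 and Clk4 had r = 0.70 (rho 0.66), which was 0.35 without 4-week replicates 1 and 3 and so rests on them. Neat1 and Clk1 had r = 0.08 (rho 0.14), and 0.68 without control replicates 1 and 3.

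The same deviations moved with markers of other cells. The mean of 6 fibroblast markers followed Meg3 with r = 0.91 (rho 0.87) and Neat1 with r = 0.85 (rho 0.78), and these were 0.85 and 0.72 without control replicates 1 and 3. In controls that mean was 0.97, 0.77, -0.04 and 0.21, the same higher and lower pairs as in Neat1 and Meg3. In the 4-week samples it was 0.90, -0.01, 0.45 and 0.55, and at 40 weeks 0.21, 0.21, 0.48 and 0.32. At 40 weeks 0 of the 6 fibroblast markers were called higher and 1 lower by limma, and 2 higher and 1 lower with the columns scaled. Over all genes the shares were 18.8% higher and 23.5% lower, and 18.7% and 18.4% when scaled. The mean of 10 pancreatic acinar markers ran the other way, with r = -0.74 (rho -0.40) for Neat1 and -0.77 (rho -0.63) for Meg3. Without the same 2 controls r was -0.47 and -0.59. The part of either marker list in the spread or in the 40-week values of Neat1 and Meg3 was not tested.

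**Figure D5:**
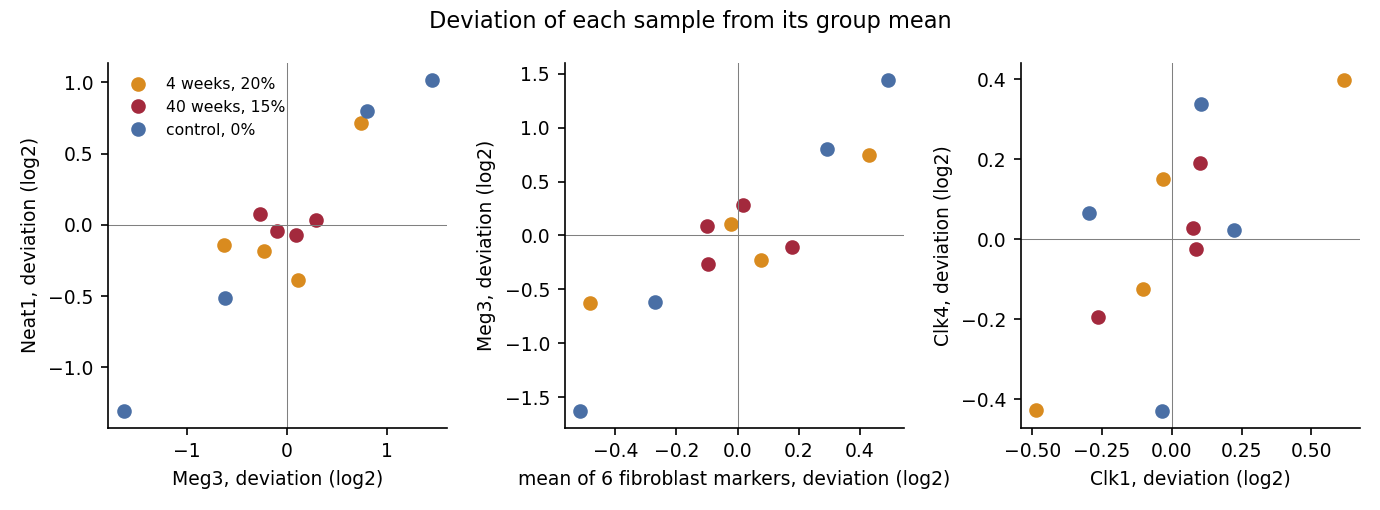
Deviation of each of the 12 samples from its group mean, in log2 units, for Neat1 against Meg3, for Meg3 against the mean of 6 fibroblast markers, and for Clk4 against Clk1. Control replicates 1 and 3 lie at the ends of the first and second plots, and the 40-week samples lie near 0 in the first.

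The genes whose deviations were most like those of Neat1 over the 12 samples, among 16829 named genes, were Sned1, Firre and Nr2f2 (r 0.99, 0.98 and 0.97). Those most like Meg3 were Zfhx3, Rbmxl2 and Map1a (r 0.98, 0.97 and 0.97). For the mean of the splicing factor genes, which includes Srrm3 probe 1, they were Prpf38b, Fsd1l and Zfp770 (r 0.97, 0.97 and 0.95). Over the log2 ratios themselves, where the points fall into a 40-week cluster and the rest, the genes ranked highest were Doc2g, Eml5 and Acrbp for Neat1, Kremen1, D5Ertd579e and 4930520O04Rik for Meg3, and Nktr, Mcemp1 and Atg16l2 for the splicing factors, and no pooled r is given.

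Other nuclear RNAs and splicing genes had been listed with earlier results known, and 136 of them were measured. At 40 weeks limma called 64 higher and 11 lower than in controls at an adjusted p under 0.05, where 18.8% of all genes were called higher and 23.5% lower, and their median difference was 0.32, beside -0.08 over all 20664 genes. With the columns scaled, 18.7% of all genes were called higher and 18.4% lower. These shares were 15.9% and 19.9% without the 3 mixed arrays, and without 40-week replicates 3 and 4 they were 9.52% and 14%. At 4 weeks limma gave 28 of 136 at an unadjusted p under 0.05, beside 5414 of all 30447 probes. By adjusted p it called 1 of 136 higher and 0 lower, where 0.218% of all genes were called higher and 0.692% lower. The 1 gene was U2af2, the large subunit of the factor that binds the polypyrimidine tract, with a difference of 0.58 (limma adjusted p = 0.047). Of 20 other settings of this comparison, 6 kept the call, with adjusted p of 0.0118 to 0.393 over the 20, and it was lost without the 3 mixed arrays (0.0836) and without any 1 of the 8 samples.

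Long noncoding RNAs had the largest median of the lists at 40 weeks, 1.07 over 18 measured genes, of which 14 were called higher and 1 lower. Kcnq1ot1, the antisense RNA of an imprinted cluster, rose by 2.43 ± 0.63 (limma adjusted p = 0.00929), and its controls spanned -4.06 to -0.46. The snoRNA host genes Snhg1, Snhg8 and Snhg17 rose by 2.31 ± 0.16, 2.17 ± 0.26 and 1.71 ± 0.22 (limma adjusted p of 1.98e-06, 5.94e-05 and 0.000108). Malat1, the abundant RNA of nuclear speckles, rose by 1.53 ± 0.53 (limma adjusted p = 0.0359), but its range of 1.03 to 1.71 at 40 weeks overlapped the range of -1.52 to 1.17 in controls. Ftx, a noncoding gene near Xist, fell by 1.08 ± 0.21 (limma adjusted p = 0.00186). When scaled, Kcnq1ot1, Snhg1, Snhg8 and Snhg17 had 2.18, 1.71, 1.70 and 1.32. With the columns scaled, 11 of 18 were called higher and 1 lower, with a median of 0.79, and 10 and 1, with a median of 0.78, when 4-week replicate 2 and control replicates 3 and 4 were left out. Without 40-week replicates 3 and 4 the list held 9 higher and 1 lower.

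Of the 4 measured genes of the Dlk1-Meg3 region, 2 were called higher at 40 weeks and 0 lower. Mirg, a microRNA host transcript downstream of Meg3, rose by 1.73 ± 0.61 (limma adjusted p = 0.0387), with overlapping groups. Dlk1, the paternally expressed gene of the region, rose by 1.26 ± 0.16 (limma adjusted p = 9.71e-05), which became 0.27 with an adjusted p = 0.229 after scaling. Rian had a difference of 0.28 ± 0.28 and Dio3 one of -0.61 ± 0.24 (limma adjusted p of 0.452 and 0.0565), and after scaling Rian was called higher at 1.20 (adjusted p = 0.00465). The list held 1 call without the 3 mixed arrays, with a median of 0.28, and 1 without 40-week replicates 3 and 4.

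Of the paraspeckle proteins, 5 of 13 were called higher and 0 lower, with a median of 0.11, and 2 higher and 3 lower after scaling. The calls were 2 and 0 without the 3 mixed arrays, and 3 and 0 without 40-week replicates 3 and 4. The RNA-binding proteins Taf15 and Ewsr1 rose by 2.06 ± 0.23 and 0.35 ± 0.13 (limma adjusted p of 4.09e-05 and 0.0414). The core paraspeckle proteins Sfpq and Nono had differences of -0.16 ± 0.21 and 0.10 ± 0.14 (limma adjusted p of 0.576 and 0.614). Pspc1 rose by 0.46 ± 0.16 (limma adjusted p = 0.0369), which became -0.04 after scaling.

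Among the partners in nuclear speckles and exon junctions, 10 of 15 were called higher and 1 lower, with a median of 0.59, and 9 higher and 3 lower after scaling. The calls were 7 and 1 without the 3 mixed arrays, and 6 and 1 without 40-week replicates 3 and 4. Ddx39b, an RNA helicase of the spliceosome and of mRNA export, rose by 1.21 ± 0.13, and Rbm39, a coactivator related to the U2AF factors, by 0.89 ± 0.17 (limma adjusted p of 2.46e-05 and 0.00145). The Luc7l relatives Luc7l2 and Luc7l3 rose by 1.18 ± 0.18 and 0.85 ± 0.13 (limma adjusted p of 0.000339 and 0.000298), where Luc7l probe 1 had 0.46. When scaled, Ddx39b, Rbm39, Luc7l2 and Luc7l3 had 0.77, 0.68, 1.01 and 0.91.

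Of the SR proteins, 5 of 13 were called higher and 2 lower, with a median of 0.14, and 3 in each direction after scaling. Without the 3 mixed arrays, and likewise without 40-week replicates 3 and 4, the calls were 3 higher and 1 lower. Srsf11, Srsf6 and Tra2a rose by 0.97 ± 0.16, 0.79 ± 0.14 and 0.61 ± 0.20 and Srsf3 fell by 0.90 ± 0.16 (limma adjusted p of 0.000664, 0.00102, 0.0265 and 0.00121), and Tra2a lost its call after scaling (adjusted p = 0.0622). Of the kinases of SR proteins, 1 of 7 was called higher and 1 lower, and 3 higher and 0 lower after scaling. Leaving out the 3 mixed arrays or 40-week replicates 3 and 4 left 0 calls by limma, with 2 and 1 of 7 at an unadjusted p under 0.05. Of all 30447 probes, 14026 and 11517 then had an unadjusted p under 0.05 by limma. Clk3 rose by 0.56 ± 0.16 (limma adjusted p = 0.0127), and Clk2 had a difference of 0.33 ± 0.19 (limma adjusted p = 0.183).

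Core spliceosome genes were called higher in 17 and lower in 3 of 34, with a median of 0.39, and in 11 and 6 with a median of 0.14 after scaling. Snrnp70 of the U1 particle rose by 1.33 ± 0.18, Prpf8 of the catalytic centre by 1.07 ± 0.14, the helicase Snrnp200 by 1.00 ± 0.19 and Prpf40b by 1.01 ± 0.19 (limma adjusted p of 0.000161, 0.000113, 0.00129 and 0.00129). When scaled, Snrnp70, Prpf8, Snrnp200 and Prpf40b had 1.23, 0.66, 0.78 and 0.58. U2af2 rose by 0.95 ± 0.13 at 40 weeks as deposited (limma adjusted p = 0.000147). Without 40-week replicates 3 and 4 the list held 12 higher and 0 lower.

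The hnRNPs, proteins that coat nascent transcripts, had 5 of 23 called higher and 3 lower with a median of -0.11, and 4 higher and 9 lower after scaling. The calls were 4 and 4 without the 3 mixed arrays, and 3 and 3 without 40-week replicates 3 and 4. Hnrnph1, Ptbp1 and Hnrnpd rose by 1.25 ± 0.14, 1.06 ± 0.16 and 0.77 ± 0.13, and Hnrnpc fell by 1.0 ± 0.23 (limma adjusted p of 3.34e-05, 0.000355, 0.00057 and 0.00523). When scaled, these 4 genes had 1.08, 0.88, 0.49 and -1.31. Of the neuronal splicing regulators, 5 of 11 were called higher and 0 lower, and 4 higher and 1 lower after scaling. Without the 3 mixed arrays 3 were called higher and 1 lower, with a median of 0.18 beside 0.37, and without 40-week replicates 3 and 4 the counts were 2 and 0. Celf3 and Rbfox1, RNA-binding proteins of neurons, rose by 1.66 ± 0.20 and 0.91 ± 0.18 (limma adjusted p of 6.85e-05 and 0.00161). Srrm4, the neuronal relative of Srrm3, rose by 0.92 ± 0.25 and Celf5 by 0.70 ± 0.26 (limma adjusted p of 0.0113 and 0.0471), and both lost the call after scaling. Of 12 markers of enteric neurons and glia, 0 were called higher and 7 lower at 40 weeks, with a median of -0.74, and 4 higher and 1 lower after scaling; their part in these results was not tested.

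Promoter windows around the gene starts on build GRCm38.p6 were taken from RefSeq and were present for 7 of the 10 genes in 9 windows; Neat1, Luc7l and Clk1 had none. They were searched on both strands for 4 motifs picked after the promoters had been read. The cAMP response element TGACGTCA was in 2 of 9 windows, those of Clk4 and Meg3, and in 1.79% of all 32851 promoters. The CCAAT box (CCAAT) was in 4 of 9, against 37.4% of all, the GC box (GGGCGG) in 3 of 9, against 35.7%, and the ETS motif (CCGGAAG) in 2 of 9, against 8.86%. A match describes letters in this window and nothing more. The Clk4 window is chr11:51262864-51263163 and the Meg3 window chr12:109540746-109541045, both on the plus strand, and the capitals mark the cAMP response element, which ends 57 bases before the start in Clk4 and 49 bases before it in Meg3.
Clk4 promoter: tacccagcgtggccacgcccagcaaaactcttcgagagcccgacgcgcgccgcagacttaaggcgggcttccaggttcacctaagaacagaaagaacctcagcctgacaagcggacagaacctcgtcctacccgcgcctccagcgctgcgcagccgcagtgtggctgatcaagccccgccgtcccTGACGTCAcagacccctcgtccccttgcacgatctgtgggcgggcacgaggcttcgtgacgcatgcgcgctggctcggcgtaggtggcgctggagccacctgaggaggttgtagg
Meg3 promoter: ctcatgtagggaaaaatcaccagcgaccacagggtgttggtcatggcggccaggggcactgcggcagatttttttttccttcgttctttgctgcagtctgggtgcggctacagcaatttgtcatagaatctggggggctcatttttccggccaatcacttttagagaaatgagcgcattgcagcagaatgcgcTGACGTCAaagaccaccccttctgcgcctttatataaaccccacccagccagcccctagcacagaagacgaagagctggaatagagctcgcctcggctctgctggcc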

How the data were processed

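Per the file headers, the scanner output of the 8 control and 4-week arrays gives each spot's mean signal and its local background median in linear intensity. The processed signals and the flags of 0 or 1 (other values) are as deposited. The deposited table gives log2 ratios (Cy5 over Cy3) for 12 arrays, and how it was made is not given in the sources used here. On the 8 arrays it matched plain log2 ratios of the scanner signals in scale and direction, with slopes of 0.974 to 0.996. Its slope on the corrected scanner ratios used for the 4-week comparison was 1.16 to 1.25. The 4-week differences are thus on a narrower scale than the 40-week differences. Neither slope could be checked for the 40-week columns. The headers name Agilent Feature Extraction 10.7.3.1 and the submitters' processing notes 9.1.

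Control and 4-week arrays were corrected with normexp (offset 50) and loess and compared with limma 3.58.1 in R 4.3.3. Both 40-week comparisons were fitted to the deposited table with all 12 samples in 3 groups. For each probe these groups shared a single estimate of spread. Most probes had a narrower range at 40 weeks than in controls, and the SEs and calls do not allow for that. Kept probes had Cy5 flagged well above background on 3 or more of the 4 arrays of the control or 4-week group. Calls are Benjamini-Hochberg adjusted p under 0.05 over 30447 probes. The fits were tested on simulated data. The brightest kept probe stands for each gene in the lists. The members, the lists and their tests were chosen with earlier results of these data known. The number of arrays limits the precision.

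All probes of the 10 genes are described. From each list, up to 4 genes with the largest 40-week difference among those called with groups that do not overlap are named, up to 2 at 4 weeks, and the closest relatives and partners of the 10 genes; 1 gene that the rule names is not reported here. Ftx and the 40-week value of U2af2 were singled out after their values were seen. Likeness is Pearson's r over 12 samples. Alternatives were other background corrections and normalisations, single channels, filters, blocks, weights and left-out samples.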

Additional observations from a re-analysis of the deposited data

Results flagged for a closer look

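Clk1 probe 1 in 40-week replicate 4 stood apart from its group, with a deposited log2 ratio of 0.62 where the other 3 samples had 0.96 to 0.99. It was the 1 such sample in 57 groups looked at, and chance flags about 1 in 20 groups. Clk1 probe 2 and Clk4 probe 1 also had their lowest 40-week value in that sample.

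At 8 probes every 40-week sample moved one way from the control mean and every 4-week sample the other way. The share of all probes that do so was not counted, so nothing is read from this number. The difference between these responses was not tested as such, since the genes were chosen with the values known. The 40-week minus 4-week difference was 2.10 for Meg3 probe 4, 1.69 for Srrm2, 3.51 for Srrm3 probe 1, 1.91 for Pnn, 0.99 for Luc7l probe 1, and 1.97, 1.30 and 1.26 for Clk4 probes 1, 2 and 3. Both responses use the same controls, the 40-week values come from columns with a narrower spread, and the 2 groups differ in dose, time and labelled saccharin, which cannot be told apart. At Srrm3 probe 1 the reference channel varied as well.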

How the results depend on the processing

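Over all probes, limma called 230 at 4 weeks (55 higher, 175 lower; 5414 at an unadjusted p under 0.05). That count was 610 with no background correction, 27 with an offset of 10, 652 with the scanner's processed signals, 60 in Cy5 alone, 2190 in Cy3 alone, 1616 on the deposited table, 729 with array weights and 393 without 4-week replicate 2 and control replicates 3 and 4. It was 0 with median centring of each array (3906 at an unadjusted p under 0.05), 0 with arrays scaled to 1 spread (4746) and 0 with the replicate block (5496), and 0 to 22 when 1 replicate was left out, with 22 without 4-week replicate 2. The share of calls that were higher was 23.9%, and 37.7% with processed signals, 42.6% on the deposited table, 83.3% in Cy5 alone, 67.2% in Cy3 alone and 35.8% with weights. The 40-week counts were 12853 against control (12711 with the replicate block) and 13094 against 4 weeks (12823 with the block), and 7059 and 7150 without 40-week replicates 3 and 4. Samples of 1 number had correlations of 0.32, -0.46, 0.16 and -0.24 between 4-week and control arrays, of 0.20, 0.08, 0.09 and 0.16 between 40-week and control samples, and of 0.19, -0.18, -0.15 and 0.01 between 40-week and 4-week samples. In no comparison was every pair over 0.1, so the numbers are taken as names only. With all kept probes of the listed genes, summed over the lists, 2 were called at 4 weeks, 149 at 40 weeks against control and 159 against 4 weeks. Over all 30447 probes these counts were 230, 12853 and 13094, in either direction. In the sums over the lists, a gene on 2 lists counts in each, so nothing is read from them. Among the 10 genes no difference changed sign while past the threshold. Those that moved by more than the replicate SD were Srrm3 at 4 weeks (1.02 in Cy5, where the ratio gave -0.86), Pnn at 4 weeks (-0.42 with median centring), Snhg20 at 40 weeks against control (2.56 when scaled), and, against 4 weeks, Meg3 (2.93 when scaled, 2.90 with quantiles), Snhg20 (3.01 when scaled), Srrm2 (1.43 and 1.40) and Luc7l (0.77 and 0.75). The cause was not tested. Low Cy5 signal at Srrm3, at Meg3 probes 3, 4 and 5 and at Clk4 probes 3 and 4 limits what those probes can show.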
